A study of Homo sapiens with 8 samples.

Results

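The cytosolic aminoacyl-tRNA synthetases were followed through 114 sgRNAs against 23 genes in a genome-wide CRISPRi growth screen. An sgRNA was taken when the symbol in its name was 1 of the 20 synthetase genes of the cytosol or 1 of 3 scaffold genes, when it belonged to the set for the primary promoter, and when it averaged 20 or more reads over the 8 libraries. These 114 were taken from 230 sgRNAs listed for the 23 genes, among 102987 targeting sgRNAs kept in the whole table. Of the 116 others, 115 had no read in any library and 1, against KARS, had only 5 reads in all. Absence of reads was not particular to these genes. Of all 209070 sgRNAs listed, 103686 had no read in any library. Each gene kept 5 sgRNAs except SARS, which kept 4.

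The screen was made in K562, a human leukemia cell line that stably expressed dCas9-KRAB, a Cas9 without cutting activity fused to a repressor domain. An sgRNA brings it to a promoter and lowers transcription there, and the sgRNA is read from genomic DNA, so its share of the reads follows the share of cells that carry it. The 4 groups of 2 libraries were cells with mutant uL16 at day 9, cells with mutant uL16 at day 0, cells with wild-type uL16 at day 9 and cells with wild-type uL16 at day 0. uL16 is a protein of the large ribosomal subunit, encoded by RPL10, and the stated aim was to find factors that act on defective large subunits. All groups were transduced with the same sgRNA library and selected with puromycin (1 µg/ml, for 3 days), and the screen ran for 10 cell doublings. Which mutation was used, what promoter drove uL16, and whether a line came from 1 clone are not given in the sources used here.

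Library totals ranged from 39233340 to 143585751 reads, and the median kept sgRNA had 328 to 1219 reads per library. The labels do not say that the replicates were separate cultures, so p-values measure only the spread between these libraries. Reads from PCR carry no molecular identifiers here, so they do not count independent molecules. No RNA was measured, so the degree of knockdown is unknown for every gene, and a fall in read share through slower growth cannot be told apart from one through loss of cells.

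An aminoacyl-tRNA synthetase joins an amino acid to its tRNA, and the ribosome then uses the charged tRNA to extend a protein. Each amino acid has its own enzyme in the cytosol, except that EPRS carries the glutamyl and prolyl activities on 1 chain and that phenylalanyl-tRNA synthetase is built from the products of FARSA and FARSB. In human cells 8 of the enzymes are held in a multisynthetase complex together with the scaffold proteins AIMP1, AIMP2 and EEF1E1. When a tRNA stays uncharged, the kinase GCN2 (EIF2AK4) phosphorylates eIF2, and translation of the transcription factor ATF4 increases.

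ATF4 is known to bind elements that contain TGATGNAA, which reads TTNCATCA on the opposite strand, and many synthetase genes are among its known targets. RefSeq promoter windows of GRCh38.p14, which run from 250 bases before to 50 bases after a transcript start, were found for 19 of the 23 genes. These windows were searched on both strands. The motif was present in the windows of 7 of the 19 genes (36.8%), against 1217 of 27305 genes in the table (4.46%), and in 7 of the 27 windows of these genes (25.9%), against 1270 of 35116 windows (3.62%). A match describes the letters and is not a binding site. The 7 stretches are shown from 10 bases before to 10 bases after the match, in the direction of the gene, with the match in capitals.

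AARS1: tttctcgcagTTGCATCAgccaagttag (chr16:70289676-70289703, minus strand; AARS in the sgRNA names)
CARS1: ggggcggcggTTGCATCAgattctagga (chr11:3057408-3057435, minus strand; CARS)
GARS1: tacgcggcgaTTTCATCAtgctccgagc (chr7:30594835-30594862, plus strand; GARS)
IARS1: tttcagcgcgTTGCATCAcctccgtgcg (chr9:92293693-92293720, minus strand; IARS)
MARS1: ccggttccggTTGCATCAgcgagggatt (chr12:57488054-57488081, plus strand; MARS)
NARS1: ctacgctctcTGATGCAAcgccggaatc (chr18:57621805-57621832, minus strand; NARS)
TARS1: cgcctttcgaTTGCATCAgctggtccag (chr5:33440957-33440984, plus strand; TARS)

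Of these 7 genes, AARS, CARS, IARS, MARS and TARS fell in both lines by the test described below, and GARS and NARS passed it in neither. Of all 23 members 14 fell in both lines, where 7.0% of all genes did. The 23 include genes without a window, LARS, VARS and YARS among them. Genes with and without the motif were not tested against each other. The AARS1 window is given whole, with the match in capitals, because AARS was among the 2 members that fell furthest.

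AARS1: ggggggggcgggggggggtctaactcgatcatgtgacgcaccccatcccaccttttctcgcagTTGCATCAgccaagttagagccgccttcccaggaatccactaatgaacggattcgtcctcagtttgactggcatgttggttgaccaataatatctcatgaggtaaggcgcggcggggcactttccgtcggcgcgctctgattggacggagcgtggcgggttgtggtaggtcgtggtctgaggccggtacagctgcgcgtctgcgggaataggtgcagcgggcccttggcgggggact (chr16:70289457-70289756, minus strand)

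The HARS1 window is shown because HARS2, which encodes the mitochondrial histidyl enzyme, starts 85 bases away on the opposite strand. Capitals mark the 184 bases that lie in both windows, so an sgRNA placed here lies in the promoter window of both genes.

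HARS1: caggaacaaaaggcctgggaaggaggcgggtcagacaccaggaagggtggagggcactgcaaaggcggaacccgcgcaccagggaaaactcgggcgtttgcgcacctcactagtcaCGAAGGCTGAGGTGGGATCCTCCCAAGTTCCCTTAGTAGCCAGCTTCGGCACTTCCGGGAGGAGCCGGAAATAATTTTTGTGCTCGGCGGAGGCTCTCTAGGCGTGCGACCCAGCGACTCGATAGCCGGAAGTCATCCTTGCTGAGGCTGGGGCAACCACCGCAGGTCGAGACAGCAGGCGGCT (chr5:140691321-140691620, minus strand)

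Reads of the 114 sgRNAs took 0.0807% and 0.0810% of the mutant day 9 libraries, against 0.111% and 0.109% of the mutant day 0 libraries. In the wild-type line they took 0.0794% and 0.0810% at day 9, against 0.106% and 0.110% at day 0. The day 9 shares lay below the day 0 shares in both lines without overlap.

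Counts were summed over the sgRNAs of a gene and tested by edgeR's quasi-likelihood test over 18903 genes, with Benjamini-Hochberg adjusted p under 0.05 as the threshold. Changes are log2 ratios of day 9 over day 0. In the mutant line 15 of the 23 genes fell and none rose by this test, where 8.53% of all genes fell and 0.704% rose. In the wild-type line 16 fell and 1 rose, where 8.7% of all genes fell and 0.868% rose. The 14 genes that fell in both lines stand against 7.0% of all genes. The median change of the 23 was -0.51 in the mutant line and -0.48 in the wild-type line, beside 0.01 for all genes in each line.

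The count of calls in the wild-type line moved most when 1 library was left out. A fit without a library has fewer residual degrees of freedom, so a lost call does not by itself place the change in that library. Without wild-type day 0 replicate 2, 10 genes fell and none rose. The calls lost then were those of IARS (-0.34), KARS (-0.30), LARS (-0.37), MARS (-0.55), TARS (-0.39), YARS (-0.52) and WARS (0.26). Leaving out any other single library left 14 to 17 calls in the wild-type line, and leaving out any single library left 12 to 16 in the mutant line.

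AARS, which charges tRNA with alanine, and VARS, which charges tRNA with valine, fell furthest. AARS had 0.946 and 2.54 CPM (reads scaled to 1 common library size) in mutant day 9 libraries, against 24.7 and 22.1 CPM in mutant day 0 libraries. AARS had 2.63 and 1.23 CPM in wild-type day 9 libraries, against 25.4 and 25.8 CPM in wild-type day 0 libraries. Every day 9 library was far below every day 0 library, while the day 9 replicates lay further apart in ratio than the day 0 replicates. AARS changed by -3.62 (SE 0.31, adjusted p 7.47e-11, edgeR) in the mutant line, or 12.3-fold lower, and by -3.73 (SE 0.32, adjusted p 7.38e-11, edgeR) in the wild-type line. The AARS change was -4.62 in the mutant line without mutant day 9 replicate 2 and -4.38 in the wild-type line without wild-type day 9 replicate 1.

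VARS had 2.70 and 0.904 CPM in mutant day 9 libraries, against 26.4 and 24.9 CPM in mutant day 0 libraries. VARS had 2.28 and 3.32 CPM in wild-type day 9 libraries, against 23.1 and 29.2 CPM in wild-type day 0 libraries. Neither line showed overlap between days. VARS changed by -3.99 (SE 0.32, adjusted p 1.3e-11, edgeR) in the mutant line and by -3.22 (SE 0.30, adjusted p 4.8e-10, edgeR) in the wild-type line. The mutant change was -4.82 without mutant day 9 replicate 1 and -3.24 without mutant day 9 replicate 2.

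AARS and VARS were also the only 2 members whose sgRNAs were all called lower in both lines, 5 of 5 each. The 5 AARS sgRNAs lay within 44 bases by the positions in their names and changed by -5.21 to -3.02 in the mutant line and by -4.53 to -3.07 in the wild-type line. The lowest AARS sgRNA by the mean of both lines was at -5.21 in the mutant line and -3.72 in the wild-type line, and the highest at -3.02 and -4.08. For VARS the lowest was at -5.37 in the mutant line and -3.27 in the wild-type line, and the highest at -3.50 and -2.76.

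SARS, which charges serine and also loads the selenocysteine tRNA with serine, had 7.26 and 5.52 CPM in mutant day 9 libraries, against 25.0 and 24.4 CPM in mutant day 0 libraries. SARS had 6.20 and 6.94 CPM in wild-type day 9 libraries, against 27.8 and 20.1 CPM in wild-type day 0 libraries. The days did not overlap in either line, and the day 9 libraries of the 2 lines were interleaved. SARS changed by -1.97 (SE 0.22, adjusted p 1.89e-08, edgeR) in the mutant line and by -1.86 (SE 0.22, adjusted p 6.68e-08, edgeR) in the wild-type line. Its lowest sgRNA was at -5.59 in the mutant line and -3.78 in the wild-type line, and its highest at -0.87 and -1.25, neither of which passed the test.

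CARS, the cysteinyl enzyme, had 18.6 and 18.9 CPM in mutant day 9 libraries, against 53.9 and 46.7 CPM in mutant day 0 libraries. CARS had 12.3 and 14.2 CPM in wild-type day 9 libraries, against 44.0 and 48.6 CPM in wild-type day 0 libraries. Day 9 was lower in both lines without overlap, and both mutant day 9 libraries were above both wild-type day 9 libraries. CARS changed by -1.42 (SE 0.13, adjusted p 3.71e-10, edgeR) in the mutant line and by -1.80 (SE 0.14, adjusted p 4.16e-12, edgeR) in the wild-type line. Of its 5 sgRNAs, 4 lie within 46 bases of each other and fell in both lines, the lowest at -2.90 in the mutant line and -2.64 in the wild-type line. The other, 358 bases or more away, was at 0.68 in the mutant line and -0.24 in the wild-type line and passed the test in neither.

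FARSA and FARSB encode the alpha and beta subunits of 1 enzyme, and their summed counts differed widely. FARSB had 27.4 and 32.3 CPM in mutant day 9 libraries, against 87.9 and 82.8 CPM in mutant day 0 libraries. FARSB had 23.5 and 35.1 CPM in wild-type day 9 libraries, against 84.8 and 76.4 CPM in wild-type day 0 libraries. All day 9 libraries were below all day 0 libraries. FARSB changed by -1.51 (SE 0.12, adjusted p 2.3e-11, edgeR) in the mutant line and by -1.46 (SE 0.13, adjusted p 6.22e-11, edgeR) in the wild-type line. Its lowest sgRNA was at -4.21 in the mutant line and -3.91 in the wild-type line, and its highest at -0.91 and -0.57, the second of which did not pass the test.

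FARSA had 58.8 and 53.1 CPM in mutant day 9 libraries, against 72.1 and 66.6 CPM in mutant day 0 libraries. FARSA had 68.0 and 67.4 CPM in wild-type day 9 libraries, against 71.9 and 73.4 CPM in wild-type day 0 libraries. Day 9 was below day 0 in both lines without overlap, by little in the wild-type line. FARSA changed by -0.31 (SE 0.09, adjusted p 0.0195, edgeR) in the mutant line and by -0.10 (SE 0.09, adjusted p 0.598, edgeR) in the wild-type line. The mutant call was lost without mutant day 9 replicate 2 (-0.23), mutant day 0 replicate 1 (-0.25) or mutant day 0 replicate 2 (-0.37).

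The FARSA sgRNAs fell into 2 separate sets. Of the 5, 2 whose positions are 3 bases apart changed by -3.40 and -5.32 in the mutant line and by -3.96 and -3.64 in the wild-type line, all past the test. The other 3 lay between -0.08 and 0.13 in the mutant line and between 0.05 and 0.49 in the wild-type line, and none passed. The 2 sgRNAs that fell held 18.4% of FARSA's day 0 counts, and a sum weights each sgRNA by its count. When each sgRNA was given equal weight instead, by limma on the mean log2 CPM of a gene's sgRNAs, FARSA changed by -1.76 in the mutant line and by -1.35 in the wild-type line, and it was called lower in both.

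QARS, the glutaminyl enzyme, was the lowest member of the multisynthetase complex. QARS had 17 and 14.8 CPM in mutant day 9 libraries, against 37.9 and 33.7 CPM in mutant day 0 libraries. QARS had 16.4 and 16.9 CPM in wild-type day 9 libraries, against 31.4 and 34.4 CPM in wild-type day 0 libraries. The days were apart in both lines, and the day 9 values of the lines overlapped. QARS changed by -1.18 (SE 0.15, adjusted p 2.42e-07, edgeR) in the mutant line and by -0.98 (SE 0.15, adjusted p 7.08e-06, edgeR) in the wild-type line.

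Among the QARS sgRNAs the lowest was at -5.04 in the mutant line and -4.28 in the wild-type line. The highest, 19 bases away on the same strand, was at -0.08 and -0.14. That highest sgRNA held 38.6% of QARS day 0 counts, and without it QARS changed by -3.06 in the mutant line and by -1.87 in the wild-type line.

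MARS, which charges both the initiator and the elongator methionine tRNA, had 20.6 and 19.7 CPM in mutant day 9 libraries, against 40.3 and 43.0 CPM in mutant day 0 libraries. MARS had 21 and 24.8 CPM in wild-type day 9 libraries, against 33.6 and 38.2 CPM in wild-type day 0 libraries. Both mutant day 9 libraries were below both wild-type day 9 libraries, and both mutant day 0 libraries were above both wild-type day 0 libraries. MARS changed by -1.05 (SE 0.14, adjusted p 3.68e-07, edgeR) in the mutant line and by -0.65 (SE 0.14, adjusted p 0.000762, edgeR) in the wild-type line. The wild-type call was lost without wild-type day 0 replicate 2 (-0.55) and without the most abundant sgRNA (-0.46). The lowest MARS sgRNA was at -1.71 in the mutant line and -1.54 in the wild-type line, and the highest at -0.35 and -0.14, both short of the test.

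Other enzymes of the complex gave smaller sums. EPRS changed by -0.62 in the mutant line and by -0.63 in the wild-type line, and RARS (arginine) by -0.51 and -0.47, all past the edgeR threshold. KARS, which encodes both the cytosolic and the mitochondrial lysyl enzyme, changed by -0.44 in the mutant line and -0.35 in the wild-type line, and IARS (isoleucine) by -0.41 and -0.42, also past it. LARS (leucine) was at -0.16 in the mutant line, short of the test, and fell by 0.36 in the wild-type line. So 7 of the 8 enzymes of the complex fell in the mutant line, where 8.53% of all genes did. All 8 fell in the wild-type line, where 8.7% of all genes did.

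Several of these smaller calls were lost when a single library was left out, while the changes themselves moved little. The mutant call of IARS was lost without mutant day 9 replicate 1 (-0.34), mutant day 0 replicate 1 (-0.42) or mutant day 0 replicate 2 (-0.40), and that of KARS without mutant day 0 replicate 1 (-0.40). The wild-type call of KARS was also lost without wild-type day 9 replicate 2 (-0.30) or wild-type day 0 replicate 1 (-0.39), and that of LARS without wild-type day 0 replicate 1 (-0.34).

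Of the 3 scaffold genes of the complex, 0 passed the edgeR test in either line, and 0 had an unadjusted p under 0.05. DESeq2 and limma also called 0 of the 3. AIMP2, which holds the complex together, was at 0.12 in the mutant line and -0.03 in the wild-type line. AIMP1 was at 0.13 and 0.16, and EEF1E1, which is also called AIMP3, at 0.15 and -0.05. None of their 15 sgRNAs was called in either line, and their single changes ran from -0.27 to 0.69 in the mutant line and from -0.79 to 0.33 in the wild-type line. The enzymes and the scaffold genes were not tested against each other.

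Outside the complex, HARS (histidine) changed by -0.75 in the mutant line and -0.80 in the wild-type line, and TARS (threonine) by -0.56 and -0.48, all past the test. YARS (tyrosine) fell by 0.56 in the wild-type line and was at -0.42 in the mutant line, where it missed the threshold (adjusted p 0.0559, edgeR). The YARS change in the mutant line passed when either wild-type day 9 library was left out (-0.42 each time) and under DESeq2 (-0.42). It also passed with the mutant libraries fitted alone (-0.42), under scaling to the control sgRNAs (-0.45) and with replicate blocks (-0.43). In 12 of 18 alternatives it stayed short, at -0.34 by limma on mean log2 CPM and at -0.18 without the most abundant sgRNA. Of the 5 YARS sgRNAs, 1 was called lower in the mutant line. The wild-type call of YARS was lost without wild-type day 9 replicate 1 (-0.30) or wild-type day 0 replicate 2 (-0.52), and the change was -0.88 without wild-type day 9 replicate 2. The wild-type call of TARS was lost without wild-type day 9 replicate 2 (-0.32).

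NARS (asparagine) was at -0.16 in the mutant line and -0.21 in the wild-type line, and GARS, which encodes both the cytosolic and the mitochondrial glycyl enzyme, at -0.04 and 0.01. Neither passed the test in either line, although NARS passed in the wild-type line without wild-type day 9 replicate 2 (-0.36) and with equal weight per sgRNA (-0.68). Of the 12 members outside the complex, 8 fell in each line, where 8.53% of all genes fell in the mutant line and 8.7% in the wild-type line. By structural class, 6 of 9 class I genes fell in the mutant line and 8 in the wild-type line, beside 8 of 10 class II genes in the mutant line and 7 in the wild-type line. EPRS, which belongs to both classes, is in neither count, and the classes were not tested against each other.

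WARS, the tryptophanyl enzyme and an interferon-induced gene, was the only member called higher. WARS had 79.9 and 79.3 CPM in mutant day 9 libraries, against 71.5 and 67.2 CPM in mutant day 0 libraries. WARS had 74.9 and 79.6 CPM in wild-type day 9 libraries, against 64.6 and 61.7 CPM in wild-type day 0 libraries. Day 9 was higher in both lines without overlap. WARS changed by 0.20 (SE 0.08, adjusted p 0.188, edgeR) in the mutant line and rose by 0.29 (SE 0.09, adjusted p 0.0225, edgeR) in the wild-type line.

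All 5 WARS sgRNAs were above 0 in both lines and none passed the test alone. The lowest was at 0.08 in the mutant line and 0.21 in the wild-type line, and the highest at 0.38 and 0.46. The wild-type call was lost without wild-type day 9 replicate 2 (0.24), wild-type day 0 replicate 1 (0.32) or wild-type day 0 replicate 2 (0.26), under scaling to the control sgRNAs (0.26), and with equal weight per sgRNA in limma (0.33). DESeq2 called WARS higher in the mutant line as well (0.20).

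Single sgRNAs were then tested in the same way over all 102987. In the mutant line 50 of the 114 fell, where 5.09% of all targeting sgRNAs did, and in the wild-type line 46 fell, where 5.21% did. No sgRNA of a member rose in either line, where 0.174% of all sgRNAs rose in the mutant line and 0.273% in the wild-type line. In both lines 45 fell, beside 4.16% of all. For comparison with the 1894 non-targeting control sgRNAs, changes were differences between group means of log2 CPM, with 0.5 added to each count. By this measure, which is not the edgeR change, the middle 95% of the controls lay between -0.71 and 0.61 in the mutant line. In the wild-type line it lay between -0.81 and 0.62. Below that range were 57 of the 114 in the mutant line and 54 in the wild-type line.

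Within a gene the sgRNAs were far from alike. At least 1 sgRNA fell in both lines for 18 of the 23 genes, against 12.1% of the 18903 genes tested. All sgRNAs did so for AARS and VARS, against 0.466% of all genes tested, and for 16 genes some did and others did not. No sgRNA was called for AIMP1, AIMP2, EEF1E1, GARS or WARS. By the measure used for the controls, 37 of the 114 sgRNAs (32.5%) from 17 genes were below -2 in the mutant line. In the wild-type line 35 (30.7%) from 16 genes were. Of the 1894 controls, 7 were below -2 in the mutant line and 6 in the wild-type line. NARS, whose sum passed in neither line, had 1 sgRNA of 5 at -2.16 in the mutant line and -2.76 in the wild-type line that held 8.06% of NARS day 0 counts. LARS had 1 sgRNA at -3.11 in the mutant line and -3.0 in the wild-type line that held 9.87% of its day 0 counts.

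With equal weight per sgRNA, LARS changed by -0.69 in the mutant line and -1.04 in the wild-type line, IARS by -1.26 and -1.26, and HARS by -2.73 and -2.27. This gained a call for LARS in the mutant line, and for NARS in the wild-type line (-0.68, beside -0.49 in the mutant line, which was not called). The wild-type call of YARS was lost (-0.38). Without the most abundant sgRNA of each gene, the summed change was -1.13 in the mutant line and -1.26 in the wild-type line for TARS, -0.95 and -0.75 for RARS, and -0.66 and -0.57 for KARS. For YARS it was -0.18 in the mutant line and -0.27 in the wild-type line, where the call was lost, and for NARS it was -0.39 in the wild-type line, where a call was gained. The sgRNAs that fell in both lines had a median of 6.40 CPM over the day 0 libraries, against 10.5 CPM for the other 69 sgRNAs of these genes. Day 0 already followed the puromycin selection, and whether some of the difference in abundance arose before day 0 was not tested.

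Member sgRNAs that lay close together were compared by their calls. Of 17 pairs of member sgRNAs within 10 bases of each other, from 13 genes, 14 pairs had matching calls in both lines. The remaining pairs were in EPRS, MARS and TARS. In MARS the calls differed only in the wild-type line, at -1.12 (not called) and -1.54 (called lower). In EPRS, 2 sgRNAs on the same strand 3 bases apart were at -3.25 and -0.09 in the mutant line and at -2.26 and 0.40 in the wild-type line. In TARS, 2 sgRNAs on the same strand 5 bases apart were at -3.96 and 0.06 in the mutant line and at -3.23 and 0.01 in the wild-type line. Pairs in AARS and VARS, where every sgRNA was called, could only match. The same holds for pairs in AIMP1, EEF1E1 and WARS, where none was called. Pairs further apart were not counted, so whether closeness goes with like calls was not tested.

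The sgRNA that was lowest for a gene in 1 line was then read in the other line, a reading added after the values had been seen. The change used for the choice compared libraries of 1 line. The filter, scaling and spread came from all 8 libraries, so the choice was not fully separate from the other line. Chosen in the wild-type line, these sgRNAs were called lower in the mutant line for 18 of 23 genes, where 12.8% of all genes gave such a call, with a median of -3.10. Chosen in the mutant line, they were called lower in the wild-type line for 16 of 23 genes, where 13.2% did, with a median of -2.64. The lowest sgRNA was the same one in both lines for 13 of the 23 genes, where this held for 34.5% of all genes.

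The members kept much the same order in the 2 lines. Across the 23 genes, Pearson's r between the mutant and the wild-type changes was 0.98 and Spearman's rho 0.972, and across the 114 sgRNAs these were 0.922 and 0.887. The points share their sgRNAs and the sgRNA library, and genes are not independent replicates. In the test of the difference itself (mutant change minus wild-type change), edgeR called 0 of the 23 genes, where 0.0159% of all genes were lower and 0.0% higher, and 1 of the 23 had an unadjusted p under 0.05, where 5.57% of all genes did. DESeq2 and limma also called 0.

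By summed counts, the differences ran from -0.77 to 0.38, with 13 below 0 and 10 above 0, and 22 of 23 lay within 0.5 either way. MARS had the smallest p, at -0.40 (SE 0.19, 95% interval -0.79 to -0.01, unadjusted p 0.0463, adjusted p 0.89, edgeR). CARS was at 0.38 (SE 0.19, unadjusted p 0.0504, adjusted p 0.895, edgeR). VARS was at -0.77 (SE 0.43, 95% interval -1.65 to 0.10, unadjusted p 0.0800, adjusted p 0.895, edgeR). The VARS difference was -0.03 without mutant day 9 replicate 2 and -1.60 without mutant day 9 replicate 1. The sizes also depended on how sgRNAs were weighted, so the range above holds for the sums only. With equal weight per sgRNA by limma, the difference was -0.92 for VARS, -0.46 for MARS and 0.22 for CARS. Without the most abundant sgRNA it was -1.14, -0.42 and 0.35, and none of these was called.

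No single sgRNA of a member was called in the difference, where 0.0% of all sgRNAs were, and 15 of the 114 had an unadjusted p under 0.05, where 5.12% of all did. DESeq2 called 0 of the 114 as well. Taken as a set, the members' replicates also varied more at day 9 than those of all genes, which does not hold for each member. In mutant day 9 libraries the replicates lay furthest apart for AARS (0.946 and 2.54 CPM) and VARS (2.70 and 0.904 CPM), both low there. They lay close for CARS (18.6 and 18.9 CPM) and MARS (20.6 and 19.7 CPM), among others. The SD of the difference between replicates in log2 CPM was 0.469 over the members in mutant day 9 libraries and 0.101 in mutant day 0 libraries, beside 0.193 and 0.112 over all genes. In the wild-type line it was 0.343 at day 9 and 0.162 at day 0, beside 0.209 and 0.135 over all genes. The part of this spread in the results was not tested.

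Some sgRNAs sit close to a second gene, and CRISPRi can act on both. All 5 HARS sgRNAs lie within 1 kb of sgRNAs against HARS2, the nearest at 149 bases. HARS2 fell by 0.70 in the mutant line and by 0.93 in the wild-type line. The 3 HARS sgRNAs nearest to HARS2, all within 25 bases, were at -3.84, -4.32 and -6.60 in the mutant line and at -3.49, -4.06 and -3.32 in the wild-type line, while the lowest of the 5 HARS2 sgRNAs were at -1.62 and -1.44 in the mutant line and at -1.70 and -1.92 in the wild-type line. Which of the 2 genes the HARS sgRNAs act through cannot be told apart here.

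KARS shares 2 of its sgRNAs with TERF2IP, a telomere protein gene. These shared sgRNAs were at 0.13 and -0.15 in the mutant line and at 0.07 and 0.21 in the wild-type line, and TERF2IP itself was at 0.17 and 0.18, none past the test. The 1 KARS sgRNA that passed the test is not shared, although it also lies within 1 kb of TERF2IP sgRNAs, and was at -2.72 in the mutant line and -2.71 in the wild-type line. YARS lies near S100PBP (252 bases between the closest sgRNAs), AIMP1 near TBCK (440 bases) and AIMP2 near PMS2 (206 bases), and none of these 3 neighbours was called in either line.

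Other genes of tRNA charging and its surroundings were read from 4 lists for comparison. The counts of the 4 lists stand beside 8.53% of all genes that fell in the mutant line and 8.7% in the wild-type line. Of 20 mitochondrial synthetases and amidotransferase subunits, which charge tRNA inside mitochondria, 14 fell in the mutant line and 13 in the wild-type line, with medians of -0.75 and -0.92. VARS2 fell by 2.11 in the mutant line and by 2.27 in the wild-type line, TARS2 by 1.53 and 1.34, and PARS2 by 1.32 and 1.48. The mitochondrial list thus fell at a share similar to that of the cytosolic members, 15 and 16 of 23, and the 2 shares were not tested against each other.

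Of 12 genes that deliver, export or proofread charged tRNA, 2 fell in each line, with medians of -0.0014 and -0.027. Over all genes 8.53% fell in the mutant line and 8.7% in the wild-type line, and the list was not tested against these shares. EEF1G, a subunit of the exchange factor of the elongation factor that carries charged tRNA, fell by 0.84 in the mutant line and by 0.71 in the wild-type line. PPA1, a pyrophosphatase that removes a product of the charging reaction, fell by 0.72 and 0.65. EEF1A1, the carrier itself, was at -0.34 in the mutant line and -0.18 in the wild-type line, short of the test.

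Of 18 genes that sense uncharged tRNA or act after that signal, 7 fell in each line, with medians of -0.09 and -0.24. EIF2S1, the eIF2 subunit that GCN2 phosphorylates, fell by 2.74 in the mutant line and by 2.71 in the wild-type line. EIF2B5, of the factor that reactivates eIF2, fell by 1.86 and 2.06, and GCN1L1, the partner of GCN2, by 1.22 and 1.07. GCN2 (EIF2AK4) and ATF4 were added after their values had been seen. GCN2 fell by 0.97 in the mutant line and by 1.00 in the wild-type line. ATF4 was at -0.02 in the mutant line and -0.11 in the wild-type line, short of the test.

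Of 17 genes that carry amino acids into the cell or make them, 4 fell in the mutant line and 5 in the wild-type line, with a median of -0.05 in each. SHMT2, the mitochondrial enzyme that splits serine, changed by -1.04 in the mutant line and by -1.35 in the wild-type line, past the test in both. SLC7A1, a carrier of basic amino acids, fell by 0.75 and 0.90, and ALDH18A1, an enzyme of proline synthesis, by 0.92 and 0.60. No gene of these 4 lists was called in the difference between lines by edgeR, where 0.0159% of all genes were lower and 0.0% higher. At an unadjusted p under 0.05 were 0, 0, 4 and 2 of them in the order given, where 5.57% of all genes were.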

How the data were processed

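Counts of sgRNA sequences from genomic DNA were analysed in 8 libraries, 2 in each of 4 groups taken from the labels. Per the file headers, the authors kept bases 1 to 39 of each read and made forward counts per sgRNA of a human CRISPRi library; the deposited table holds raw counts with no normalization. The submitters' processing notes name the build hg 38, but positions in the sgRNA names belong to another build, so only distances between sgRNAs are used. No counting program is named in the headers or labels.

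The sgRNAs with a mean count of at least 20 were summed per gene (3 or more sgRNAs, primary promoter sets), giving 95977 sgRNAs and 18903 genes. Counts were scaled by TMM and fitted with edgeR 4.0.16 in R 4.3.3 (glmQLFit, glmQLFTest), with 1 mean per group, 4 residual degrees of freedom and Benjamini-Hochberg adjustment over all genes, or over all sgRNAs for single sgRNAs. The fits were tested on simulated data. CPM values of a gene refer to the summed table and those of an sgRNA to all kept sgRNAs. The whole table was fitted and the rows of the synthetases are given.

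The members are named except 1, which is counted but not reported here. Per-library CPM and the lowest and highest sgRNA are given for the 6 members with the lowest mean change of both lines, for those called higher, for the 3 with the smallest p in the difference, and for FARSA and FARSB. For each comparison list the 3 genes with the smallest p in the mutant line are named. Members, lists and tests were chosen with earlier results of these data known. Alternatives were RLE size factors, scaling to control sgRNAs, DESeq2 1.42.0, no filter, a mean count of at least 100, the compared libraries alone, replicate blocks, limma 3.58.1 on mean log2 CPM (prior count 2), leaving out the most abundant sgRNA, pooling promoter sets, and leaving out each library. The sequences of the sgRNAs are not used here.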

Additional observations from a re-analysis of the deposited data

How the results depend on the processing

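With the result of each single member set against each alternative in turn, direction and side of the threshold were kept in 834 cases. A call was lost in 26 and gained in 12, and the sign changed in 7. These cases were not equal tests. Leaving out a library of the other line moved a change little, as for AARS in the mutant line (-3.60 to -3.64). Dropping the filter added to the members only the KARS sgRNA with 5 reads. The cases kept are thus not as many separate checks. The falls of 12 of the 15 members in the mutant line and of 10 of the 16 in the wild-type line held under every alternative run. The count of calls in the wild-type line ranged from 10 to 17 when each library was left out, with 10 without wild-type day 0 replicate 2. Sign changes were confined to GARS, AIMP2 and EEF1E1, which were never called. GARS in the wild-type line was -0.026 under scaling to control sgRNAs and -0.012 with a mean count of at least 100, and ranged from -0.10 to 0.11 over libraries left out. Over libraries left out, GARS in the mutant line ranged from -0.14 to 0.050, AIMP2 in the wild-type line from -0.10 to 0.040 and EEF1E1 in the wild-type line from -0.16 to 0.065. The cause was not tested.

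Same-numbered replicates did not deviate together (correlations of -0.007 to 0.047 between groups over 18903 genes). With the replicate number as a block, 16 members were called in the mutant line, 17 in the wild-type line and 0 in the difference, and the call gained in the mutant line was YARS (-0.43). No member was called in the difference under any alternative, and fitting the compared libraries alone was not run for it because it uses all 8. With 2 libraries a group, differences between the lines of the size seen for MARS and CARS had intervals reaching close to 0 or across it.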
